A study of Mus musculus with 51 samples.

Results

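Arginase and alternative activation genes were followed in mouse alveolar macrophages, phagocytes that live in the airspaces of the lung, through an exposure of the living lung to spores of the mould Aspergillus fumigatus. The genes were Arg1, Arg2, Chil3, Retnla and Mrc1, chosen by name. They had 6 probe sets carrying 1 symbol each among 22626 tested, or 5 genes among 12393. Arg2 had a pair of probe sets and the others 1 each, and the brighter, by its mean over all arrays, stood for the gene. A probe set that lists Chil3 together with Chil4 was left out.

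The macrophages came from C57Bl/6 mice (WT) or gp91phox-/- mice (KO), whose phagocytes cannot assemble a working NADPH oxidase. Each KO group held 3 arrays, from untreated mice at 0 h and from mock, e6 conidia and e7 conidia instillation at 2 h and at 4 h. The same conditions in WT held 4 arrays each, and a group given polystyrene beads, in WT at 4 h alone, held 2. That made 15 groups and 51 arrays, 30 WT and 21 KO, and the e7 dose was 10 times the e6 dose. The labels call the replicates biological and do not say how many mice gave the RNA of an array, nor their age. The study asked whether macrophages of the normal and of the immune-compromised host respond differently to conidia.

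Alternative activation is the state that macrophages take up under IL-4 and IL-13, which act through the shared receptor chain encoded by Il4ra and the transcription factor STAT6. Arg1, the cytosolic arginase, splits arginine into ornithine and urea, and so draws on the same substrate as the inducible nitric oxide synthase. Arg2 is the mitochondrial arginase. Retnla (RELM-alpha, Fizz1) and Chil3 (Ym1) are secreted proteins that mark this state in mice, and Mrc1 (CD206) is the mannose receptor of the cell surface. Resident alveolar macrophages of mice are known to make Chil3 and Mrc1 without such a stimulus.

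All levels below are the deposited signal of a probe set on a log2 scale, where a difference of 1 is a 2-fold change. Signals under 50 (5.64 on the log2 scale), which made up 30.1% to 44.9% of the probe sets on an array, carry little information, so results are also given with these signals set to 50. A difference is KO minus WT, or exposed minus control, with its standard error from limma, and a gene was called at a Benjamini-Hochberg adjusted p under 0.05 over all 22626 probe sets. Cybb, the gene disrupted in KO mice, read 10.59 to 12.12 in WT and 6.77 to 9.06 in KO, with no overlap. The alveolar macrophage markers Siglecf and Marco were at least 11.64 and 11.74 on every array. On 3 WT arrays at 4 h, mock replicate 3, e6 replicate 4 and e7 replicate 3, the mean of 12 neutrophil markers was 8.43, 7.70 and 7.31, against at most 6.05 on the other WT arrays and 6.90 on KO arrays. For mock instillation of WT mice at 4 h the titles were followed, although another label of these arrays mentions conidia.

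Arg1 was higher in KO than in WT macrophages, and the rise lay in part of the KO arrays rather than in all of them. Its signal reached 50 on 12 of 21 KO arrays and on 2 of 30 WT arrays. In every one of the 6 instilled KO groups exactly 2 of 3 arrays reached 50, and in untreated KO mice none of 3 did. The highest KO signal was 1939, and the highest WT signal was 68.0.

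In WT, Arg1 read 2.34, 1.21, 2.65 and 1.42 in untreated mice. After mock instillation it read 4.36, 4.41, 5.85 and 1.44 at 2 h, and 1.76, 4.30, 6.09 and 1.82 at 4 h. All but a pair of these arrays, replicate 3 of either mock group, lay below the signal of 50, so their order means little. With e6 conidia Arg1 was 2.07, 3.94, 2.57 and 3.15 at 2 h, and 0.68, 0.56, 4.48 and 1.35 at 4 h. With e7 conidia it was 3.44, 2.23, 2.03 and 5.37 at 2 h, and 3.11, 1.26, 3.64 and 4.07 at 4 h, and the 2 bead arrays read 5.42 and 0.20. None of the WT arrays given conidia or beads reached 50.

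In KO, Arg1 read 3.13, 5.03 and 4.66 in untreated mice. After mock instillation it was 5.76, 5.07 and 7.89 at 2 h, and 7.84, 10.41 and 4.24 at 4 h. The mock groups of KO mice thus already held arrays far above every WT array. With e6 conidia Arg1 was 5.47, 10.92 and 9.78 at 2 h, and 6.29, 4.48 and 10.77 at 4 h. With e7 conidia it was 2.62, 6.39 and 7.94 at 2 h, and 2.82, 10.11 and 5.99 at 4 h. In all, 10 of 21 KO arrays lay above all 30 WT arrays, and the spread within a group (pooled SD) was 2.74 in KO against 1.68 in WT.

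**Figure D1:**
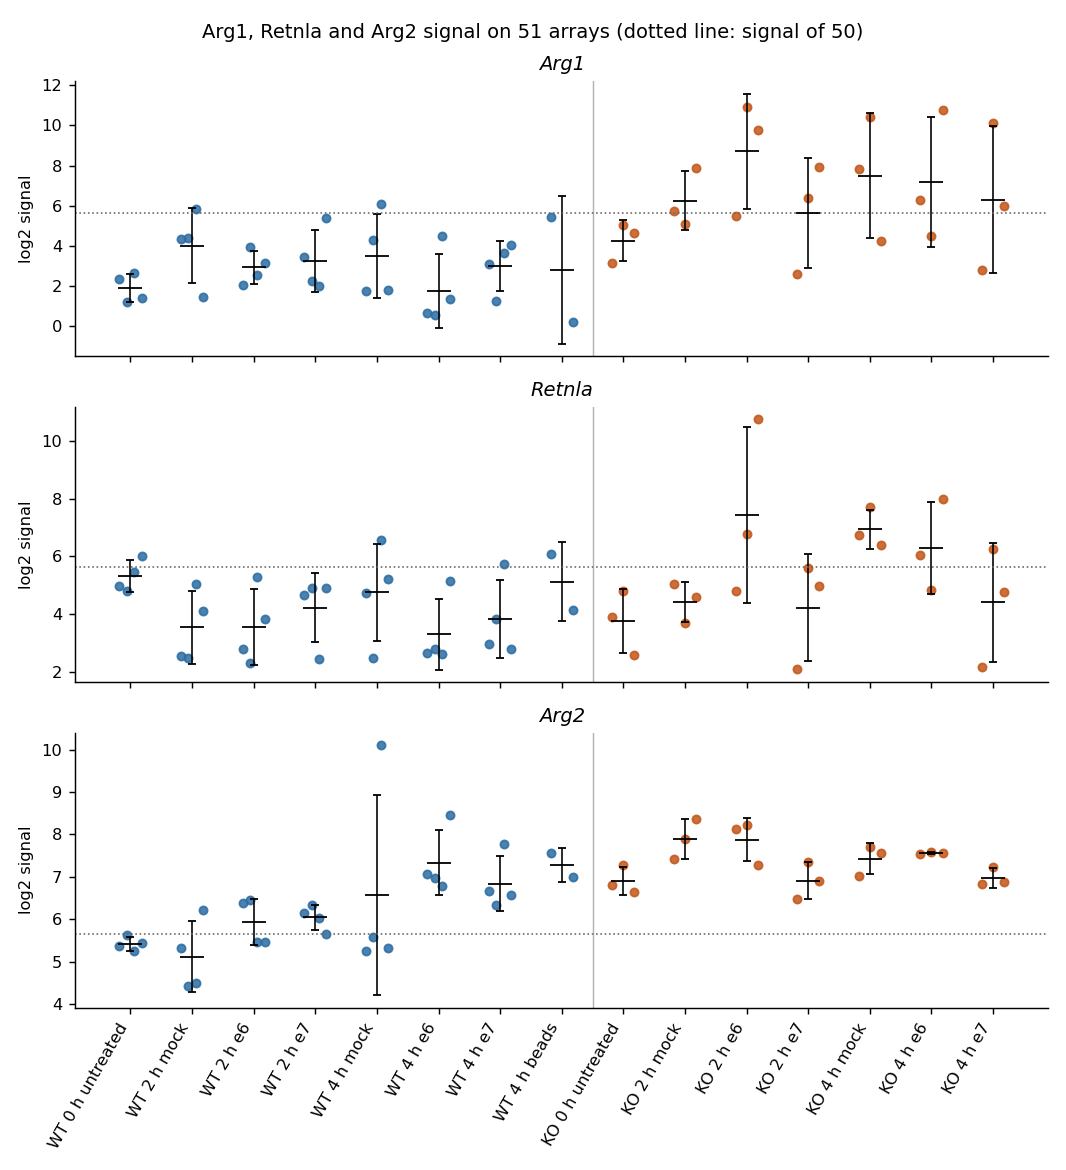
Log2 signal of Arg1, Retnla and Arg2 on each of 51 arrays (points), by group, WT in blue and KO in orange. The long bar is the group mean, the whisker 1 SD, and the dotted line a signal of 50. In the upper panel 2 of 3 arrays in each instilled KO group lie above the line; in the lower panel WT 4 h mock has 1 array at 10.11 far above the other 3.

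Taken as the mean over the 7 conditions that both genotypes had, Arg1 was 12.5-fold higher in KO (3.64 ± 0.61, limma adjusted p = 1.37e-05). With signals under 50 set to 50 the difference was 2.86-fold (1.52 ± 0.37, adjusted p = 0.0018). In this comparison 33.4% of all probe sets were called, 4945 higher and 2617 lower in KO, so a call by itself is common here. Of the 5 genes 4 were called, Arg1, Arg2 and Retnla higher and Mrc1 lower. Quantile normalization, which moved the median difference of all probe sets from 0.11 to -0.03, a shift of -0.15, also turned the split of calls from 65.4% higher to 43.3% higher. Under it Arg1 differed by 3.29 (adjusted p = 8.56e-05). The RNA of all harvested cells was measured together, so fewer cells of a type and less RNA per cell cannot be told apart.

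Condition by condition, Arg1 was called in e6 conidia at 2 h, where 2.04% of probe sets were called (5.79 ± 1.61, adjusted p = 0.0469), and in e6 conidia at 4 h, where 17.5% were (5.41 ± 1.61, adjusted p = 0.0179). All 3 KO arrays lay above all 4 WT arrays at 2 h, and 2 of 3 did at 4 h. How many of all probe sets separate in this way was not counted, here or for the genes below. Neither call held with signals under 50 set to 50 (3.14, adjusted p = 0.0918, and 1.92, adjusted p = 0.175), under quantile normalization (adjusted p = 0.0634 and 0.0509) or with only the compared groups in the fit (adjusted p = 0.188 and 0.0882). In untreated mice all 3 KO arrays also lay above the 4 WT arrays, at signals under 50 (2.37 ± 1.61, adjusted p = 0.568), where 1.99% of probe sets were called. The remaining differences were 2.22 in mock and 2.39 in e7 conidia at 2 h, and 4.01 in mock and 3.29 in e7 conidia at 4 h, none of them called. Leaving out KO 4 h e6 replicate 3 ended the 4 h call (3.62, adjusted p = 0.173), and the 2 h call was lost when any of 27 of the 51 arrays was left out.

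Arg2, the mitochondrial arginase, was more even than Arg1 among KO arrays: every KO array reached a signal of 50, and 17 of 30 WT arrays did. In KO it read 6.81, 7.27 and 6.63 in untreated mice, 7.41, 7.90 and 8.37 in mock at 2 h, and 7.02, 7.71 and 7.56 in mock at 4 h. With e6 conidia KO arrays read 8.13, 8.22 and 7.29 at 2 h and 7.54, 7.58 and 7.55 at 4 h, and with e7 conidia 6.48, 7.36 and 6.90 at 2 h and 6.82, 7.24 and 6.87 at 4 h. The pooled SD within KO groups was 0.37, a small spread beside that of Arg1.

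In WT, Arg2 read 5.36, 5.63, 5.25 and 5.44 in untreated mice and 5.31, 4.43, 4.49 and 6.22 in mock at 2 h. With conidia at 2 h it read 6.37, 6.45, 5.47 and 5.46 at the e6 dose and 6.15, 6.34, 6.03 and 5.64 at the e7 dose. Up to 2 h the WT arrays therefore stayed below every KO array of the same condition. At 4 h mock gave 5.25, 5.59, 10.11 and 5.32, with 1 array far above the other 3. At the same time e6 conidia gave 7.06, 6.98, 6.79 and 8.47, e7 conidia 6.66, 6.34, 7.77 and 6.58, and beads 7.57 and 7.0. Of these WT arrays given conidia or beads at 4 h, all but the lowest, at 6.34, lay within the range of the KO arrays or above it.

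Over the 7 conditions Arg2 was 2.28-fold higher in KO (1.19 ± 0.24, limma adjusted p = 0.000178), and the second probe set gave 1.68 ± 0.29 (adjusted p = 2.52e-05). With signals under 50 set to 50 these differences were 1.02 ± 0.22 (adjusted p = 0.000435) and 1.17 ± 0.23 (adjusted p = 9.99e-05). In mock at 2 h, where 2.25% of probe sets were called, Arg2 was 6.88-fold higher (2.78 ± 0.63, adjusted p = 0.00851). There 1 of 4 WT arrays reached 50, and with signals under 50 set to 50 Arg2 was 4.3-fold higher (2.11 ± 0.58, adjusted p = 0.0396). The second probe set gave 2.87 (adjusted p = 0.0343), and 1.74 with signals set to 50, not called (adjusted p = 0.134). The main call was lost without KO 2 h mock replicate 3 (2.55, adjusted p = 0.0807) and with only the compared groups in the fit (adjusted p = 0.08). Untreated mice differed by 1.48 ± 0.63 (adjusted p = 0.257), and in e6 conidia at 2 h the difference was 1.95 ± 0.63 (adjusted p = 0.112). In e7 conidia at 2 h, where 8.89% of probe sets were called, it was 0.88 ± 0.63 (adjusted p = 0.398), and 1.91 ± 0.77 by the second probe set (adjusted p = 0.111). In each of these 3 conditions all 3 KO arrays lay above all 4 WT arrays, and the share of all probe sets that do so was not counted. At 4 h the differences were 0.86 in mock (4.06% of probe sets called), 0.23 in e6 and 0.13 in e7 conidia (15.6% called), with overlapping arrays and no call; the second probe set gave 1.33, 0.58 and 0.85, also not called.

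The outlying WT array of the 4 h mock group also carried the highest neutrophil markers of all arrays, and the Arg2 error of every comparison was smaller without it. Without it Arg2 was called higher in KO in untreated mice (1.48 ± 0.37, limma adjusted p = 0.0244), in e6 conidia at 2 h (1.95 ± 0.37, adjusted p = 0.00135) and in mock at 4 h (2.04 ± 0.40, adjusted p = 0.00212). The mean over 7 conditions was then 1.36 ± 0.14 (adjusted p = 1.75e-09). Without the 3 WT arrays of high neutrophil markers it was 1.46 ± 0.12. The mock array was singled out by its own Arg2 value, so the p-values without it can be too small. All 4 untreated WT arrays and the WT mock arrays left at 4 h read under a signal of 50. These fits were not run with such signals set to 50. Within WT, Arg2 and the mean of the neutrophil markers had r = 0.74 and rho = 0.45 over 30 arrays, and r = 0.20 and rho = 0.24 over the 27 arrays without these 3, so the relation rests on them. Arg2 and the markers are read on the same arrays, and no test is given. With signals of the gene under 50 set to 50, r over the 30 arrays was 0.82 for Arg2, 0.59 for Arg1 and 0.59 for Retnla. In WT only 2 arrays reached 50 in Arg1 and 4 in Retnla. S100a8 read 13.75, 12.77 and 12.45 on the 3 arrays and at most 9.11 on the other WT 4 h arrays. The summed signal of the 12 neutrophil markers ranged from 1066 to 26719 in WT and from 1174 to 3856 in KO. Their part in the Arg2 signal was not tested.

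**Figure D2:**
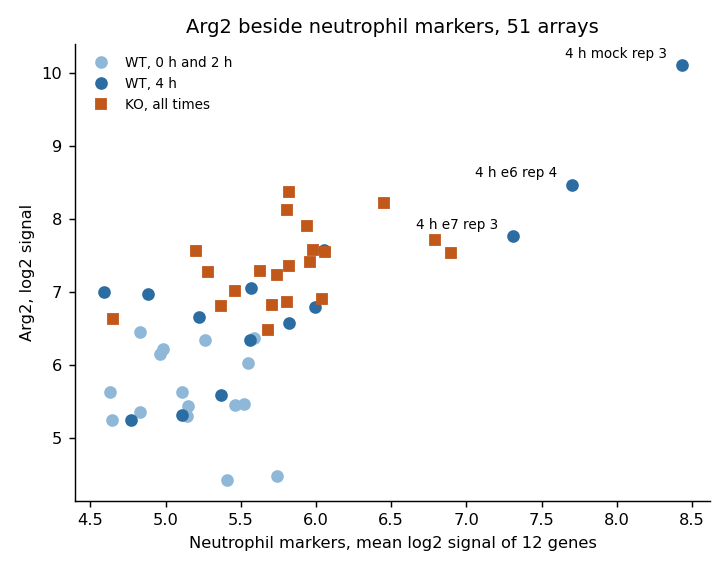
Arg2 (log2 signal) against the mean log2 signal of 12 neutrophil markers, 1 point per array, WT at 0 and 2 h in light blue, WT at 4 h in dark blue and KO in orange. The 3 labelled WT arrays, at 8.43, 7.70 and 7.31 on the horizontal axis, stand apart from the other WT arrays, which reach 6.05.

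Retnla was low in WT and reached high levels on a few KO arrays. Its signal was at least 50 on 8 of 21 KO and 4 of 30 WT arrays, and 5 KO arrays lay above all WT arrays. The highest KO signal was 1707, the highest WT signal 94.4. The promoters of Retnla and Chil3 are shown because STAT6, the factor downstream of IL-4 and IL-13, binds the palindrome TTCNNNNGAA, and STAT factors in general bind the shorter TTCNNNGAA. Both motifs read the same on either strand. RefSeq sequence of GRCm38.p6 was at hand for 3 of the 5 genes, Retnla, Chil3 and Mrc1, as the 250 bases before the gene start. The capitals mark the match. Retnla lies at chr16:48842359-48842608 on the plus strand and Chil3 at chr3:106167565-106167814 on the minus strand.
Retnla: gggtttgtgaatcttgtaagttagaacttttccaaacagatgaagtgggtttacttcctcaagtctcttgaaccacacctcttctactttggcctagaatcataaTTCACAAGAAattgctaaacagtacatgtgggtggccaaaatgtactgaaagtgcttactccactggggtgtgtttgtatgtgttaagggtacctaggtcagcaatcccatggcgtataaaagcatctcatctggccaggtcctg
Chil3: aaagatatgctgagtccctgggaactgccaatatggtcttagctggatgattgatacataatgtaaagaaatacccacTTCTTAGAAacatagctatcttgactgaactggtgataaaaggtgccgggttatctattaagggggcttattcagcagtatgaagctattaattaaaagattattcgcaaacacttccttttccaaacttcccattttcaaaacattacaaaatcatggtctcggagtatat
The Retnla window held TTCACAAGAA at -145 to -136 from the start, a match to TTCNNNNGAA, which 5.85% of 32851 promoters of the same length hold. The Chil3 window held TTCTTAGAA at -172 to -164, a match to TTCNNNGAA, found in 7.02%. The Mrc1 window held neither. Binding was not measured.

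In WT, Retnla read 4.97, 4.81, 5.47 and 6.02 in untreated mice, 2.54, 2.48, 5.03 and 4.10 in mock at 2 h, and 4.74, 2.50, 6.56 and 5.21 in mock at 4 h. With conidia at 2 h it read 2.79, 2.32, 5.29 and 3.85 at e6 and 4.68, 4.91, 2.45 and 4.89 at e7. Nearly all of these lay under a signal of 50. At 4 h e6 conidia gave 2.66, 2.80, 2.62 and 5.13, e7 conidia 2.97, 3.85, 5.72 and 2.80, and beads 6.08 and 4.16. The 4 WT arrays that reached 50 were spread over 4 groups.

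In KO, Retnla read 3.90, 4.80 and 2.59 in untreated mice and 5.05, 3.68 and 4.58 in mock at 2 h. It read 6.74, 7.70 and 6.40 in mock at 4 h, the 1 group in which all 3 arrays reached 50. With e6 conidia it was 4.79, 6.76 and 10.74 at 2 h and 6.06, 4.83 and 7.99 at 4 h, and with e7 conidia 2.12, 5.6 and 4.99 at 2 h and 2.19, 6.26 and 4.77 at 4 h. Of the 8 KO arrays that reached 50, 3 came from mock at 4 h, 4 from e6 conidia and 1 from e7 conidia.

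Over the 7 conditions Retnla was 2.43-fold higher in KO (1.28 ± 0.42, limma adjusted p = 0.0163), and 1.51-fold with signals under 50 set to 50 (0.59 ± 0.21, adjusted p = 0.0312). The call was lost under quantile normalization (0.93 ± 0.43, adjusted p = 0.103). No condition alone was called: the largest differences were 3.87 ± 1.10 in e6 conidia at 2 h (adjusted p = 0.0536) and 2.99 ± 1.10 in e6 conidia at 4 h (adjusted p = 0.0549). Without KO 2 h e6 replicate 3, which read 10.74, the 2 h difference was 2.21 (adjusted p = 0.447). With signals under 50 set to 50, the 2 h value passed (2.07, adjusted p = 0.0328). In untreated mice the values ran the other way, with all 3 KO arrays below the 4 WT arrays (-1.55 ± 1.10, adjusted p = 0.591).

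Chil3, the chitinase-like secreted protein, was high on every array and differed little between groups. Its signal ran from 13483 to 24052, on arrays whose highest probe set read 18284 to 34629, so it was read near the top of the range. Group means lay between 13.86, in KO e7 conidia at 4 h, and 14.33, in KO e6 conidia at 4 h. In those groups the arrays read 13.98, 13.75 and 13.86 against 14.43, 14.22 and 14.34. The difference was -0.47 ± 0.15 (limma adjusted p = 0.118) where 0.897% of probe sets were called, and it passed with signals under 50 set to 50 (adjusted p = 0.0252), a setting that changes the fit and not the Chil3 values. After quantile normalization the span of the 15 group means of Chil3 shrank from 0.47 to 0.12, and this difference to -0.09. KO and WT differed by 0.05 ± 0.05 over the 7 conditions (adjusted p = 0.511).

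Mrc1, the mannose receptor, ran from 13.27 to 13.79 over all 51 arrays. The highest group mean was 13.70, in WT mock at 2 h (13.75, 13.73, 13.79 and 13.54), and the lowest 13.41, in KO e7 conidia at 4 h. Over the 7 conditions it was 1.07-fold lower in KO (-0.10 ± 0.04, limma adjusted p = 0.0387). This small call was lost with log2(signal + 16) (-0.09, adjusted p = 0.0522) and when any of 18 of the 51 arrays was left out. No condition alone was called; the most negative difference was -0.20 ± 0.10 in mock at 2 h (adjusted p = 0.338).

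**Figure D3:**
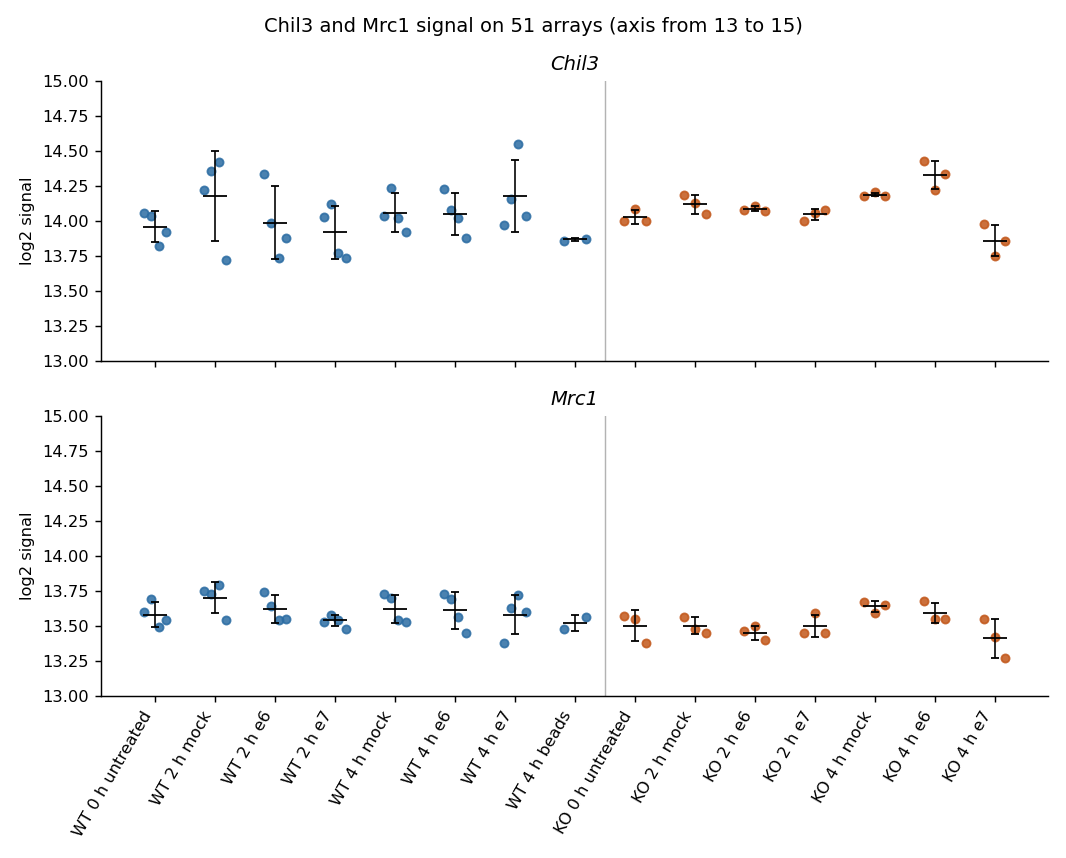
Log2 signal of Chil3 and Mrc1 on each of 51 arrays (points), by group, with the group mean and 1 SD; the axis runs from 13 to 15 and does not start at 0. Chil3 group means span 0.47 and Mrc1 group means 0.29, both of them small beside the range of Arg1, whose group means span 6.96.

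None of the 5 genes was called after conidia. Across 8 comparisons of a conidia dose with mock, 0 of 40 gene tests were called by limma, and 5 had an unadjusted p under 0.05. The share of all probe sets called was 0%, 1.61%, 0.00884% and 15.5% in WT for e6 and e7 at 2 h and e6 and e7 at 4 h, and 0%, 8.65%, 0.0796% and 0.00442% in KO in the same order. At 4 h in WT, where the e7 dose moved the most probe sets, Arg1 differed by -0.47 ± 1.49, Arg2 by 0.27 ± 0.58 and Mrc1 by -0.04 ± 0.09. The 5 tests with a low unadjusted p were Chil3 in WT e7 at 2 h (-0.27) and in KO e7 at 4 h (-0.33), Retnla in KO e6 at 2 h (2.99) and KO e7 at 4 h (-2.54), and Mrc1 in KO e7 at 4 h (-0.22).

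Arg2 at 4 h in WT depended on the outlying mock array. With it, e6 conidia against mock gave 0.76 ± 0.58 (limma adjusted p = 0.999), e7 conidia 0.27 ± 0.58 (adjusted p = 0.833) and beads 0.72 ± 0.71 (adjusted p = 0.634). Without it Arg2 was 3.83-fold higher after e6 conidia (1.94 ± 0.37, adjusted p = 0.00919), 2.73-fold after e7 conidia (1.45 ± 0.37, adjusted p = 0.00898) and 3.72-fold after beads (1.90 ± 0.45, adjusted p = 0.0403). Leaving out all 3 WT arrays of high neutrophil markers gave 1.56, 1.14 and 1.90, all called. The same array serves as mock in these 3 comparisons, so they are not separate evidence. It was singled out by its own Arg2 value of 10.11, so the p-values without it can be too small. With only this mock array left out, e6 replicate 4, at 8.47, stayed in the e6 group. The mock arrays left read signals of 38.1, 48.1 and 40.1, all under 50, and these fits were not run with such signals set to 50. With the outlying array, the second probe set gave 0.83 after e6 conidia, -0.15 after e7 conidia and 0.30 after beads, none of them called.

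Mock instillation against untreated mice gave no call in 20 gene tests (0.00442% of probe sets called in WT at 2 h, 0.0133% in WT at 4 h, 0.00442% in KO at 2 h and 1.2% in KO at 4 h), with 1 unadjusted p under 0.05. That was Retnla in KO at 4 h, where all 3 mock arrays lay above all 3 untreated arrays (3.18 ± 1.18, limma adjusted p = 0.171). Beads against mock, e7 and e6 conidia gave no call in 15 tests and no unadjusted p under 0.05, at 1.14%, 3.59% and 0.327% of probe sets called. Of 20 tests between the doses none was called, at 0% and 16.4% of probe sets called in WT at 2 h and 4 h and 7.06% and 0.897% in KO, and 2 had an unadjusted p under 0.05. One of these was the Chil3 difference given above, and the other was Retnla in KO at 2 h (-3.20 ± 1.18, adjusted p = 0.0879), which became -1.54 without KO 2 h e6 replicate 3 and was called without KO 2 h e6 replicate 1 (-4.51, adjusted p = 0.0334).

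The responses did not differ between genotypes, nor between 4 h and 2 h, in any test that was called. Of 20 tests of KO response minus WT response none was called by limma and 2 had an unadjusted p under 0.05, with 0%, 1.45%, 0.00442% and 0.19% of probe sets called for e6 and e7 at 2 h and e6 and e7 at 4 h. These were Arg2 for e7 at 2 h (-1.90 ± 0.89, adjusted p = 0.283; -0.95 by the second probe set, and called at an adjusted p of 0.0193 without the 3 WT arrays of high neutrophil markers) and Chil3 for e7 at 4 h (-0.45 ± 0.20, adjusted p = 0.234). Of 20 tests of the response at 4 h minus that at 2 h none was called and 2 had an unadjusted p under 0.05, with 0% and 2.73% called for e6 and e7 in WT and 0% and 1.7% in KO. The standard error of Arg1 in KO response minus WT response was 2.28, and that of Retnla 1.56.

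The KO arrays that were high in Arg1 tended to be high in Retnla. With signals under 50 set to 50, r was 0.67 over 21 KO arrays (permutation p = 0.00064, 0.00277 adjusted over 13 relations) and rho 0.69 (adjusted p = 0.00578). Without the 2 arrays farthest from the median Arg1, r was 0.66, and after subtracting condition means it was 0.57. Chil3 and Mrc1 also rose and fell together, with r = 0.79 and rho = 0.82 over 30 WT arrays (permutation p = 1e-05, the smallest 100000 resamples can give) and r = 0.69 and rho = 0.64 over 21 KO arrays (permutation p = 0.00059 for r). Arg1 showed no such relation with Arg2 in KO (r = 0.32, rho = 0.29, permutation p = 0.162 and 0.202). Both genes of a pair are read on the same array and share its scaling. After quantile normalization the pooled SD over all groups fell from 0.17 to 0.06 for Chil3 and from 0.1 to 0.08 for Mrc1. In several WT groups replicates 1 and 2 lay above 3 and 4 in both Chil3 and Mrc1, which the permutations ignore. The permutations moved arrays across conditions, so differences between conditions enter these p-values, and no p is given for the r of 0.57. Of the 21 KO arrays 12 reached 50 in Arg1 and 8 in Retnla, and the others are tied at 50.

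A few genes of the pathway varied with Arg1 across the 21 KO arrays, and most did not. The pathway lists were chosen with earlier results of these data known. With signals under 50 set to 50, 6 of 70 pathway genes that varied had r of at least 0.5 with Arg1 (8.57%), as had 211 of all 10682 genes that varied (1.98%), given as a description. They were Rnase2a, a ribonuclease of the eosinophil-associated family, 0.93, Mmp12, the macrophage elastase, 0.77, Mmp14, a membrane-bound matrix protease, 0.74, Msr1, a scavenger receptor, 0.71, Ccl22, a chemokine for T cells, 0.52, and Mgl2, a lectin, 0.51. On the 5 KO arrays highest in Arg1 (9.78 to 10.92) Rnase2a read 8.29 to 10.12, above its highest WT value of 7.02. On the other 5 KO arrays above all WT arrays in Arg1 (6.29 to 7.94) it read 6.49 to 7.75, in part within the WT range. The eosinophil genes Epx, Il5ra and Ccr3 were under 50 on all 51 arrays, Prg2 reached 50 on 2 KO arrays, and the summed signal of 11 eosinophil and mast cell markers was 90 to 503 in WT and 93 to 393 in KO.

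**Figure D4:**
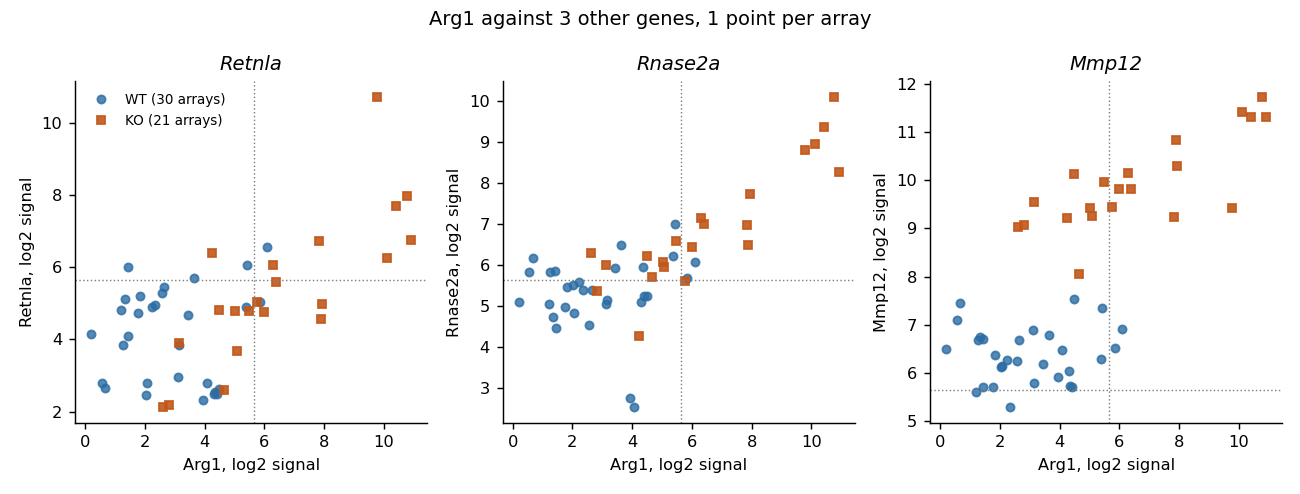
Log2 signal of Retnla, Rnase2a and Mmp12 against that of Arg1, 1 point per array, 30 WT arrays in blue and 21 KO arrays in orange, with dotted lines at a signal of 50. The 5 KO arrays highest in Arg1 lie above all WT arrays in Rnase2a, whereas Mmp12 lies above all WT arrays on 21 of 21 KO arrays whatever their Arg1.

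Among 33 other target genes of alternative activation 18 were higher and 2 lower in KO over the 7 conditions (median difference 0.49), where of all 12393 genes 2651 were higher and 1685 lower (median 0.09). These target genes were listed with earlier results of these data known, so the counts are a description. Mmp12 was 12-fold higher (3.58 ± 0.19, limma adjusted p = 1.31e-17), and Mmp14 11-fold (3.45 ± 0.17, adjusted p = 6.48e-19), and both lay above all WT arrays on 21 of 21 KO arrays. The chemokines Ccl22 and Ccl17 rose by 1.74 ± 0.11 and 1.19 ± 0.13, the growth factor Igf1 by 1.20 ± 0.09, Rnase2a by 1.67 ± 0.33 and the collagen-degrading cathepsin Ctsk by 0.95 ± 0.06. Chil4, the close relative of Chil3, was higher by 0.63 ± 0.22 (adjusted p = 0.0218). The pair that fell were Fn1, fibronectin, by 0.54 and Myc by 0.62. The 13 target genes that were not called include Egr2 (0.08), Pdcd1lg2 (0.09) and Cd163 (0.44, and 0 with signals under 50 set to 50).

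**Figure D5:**
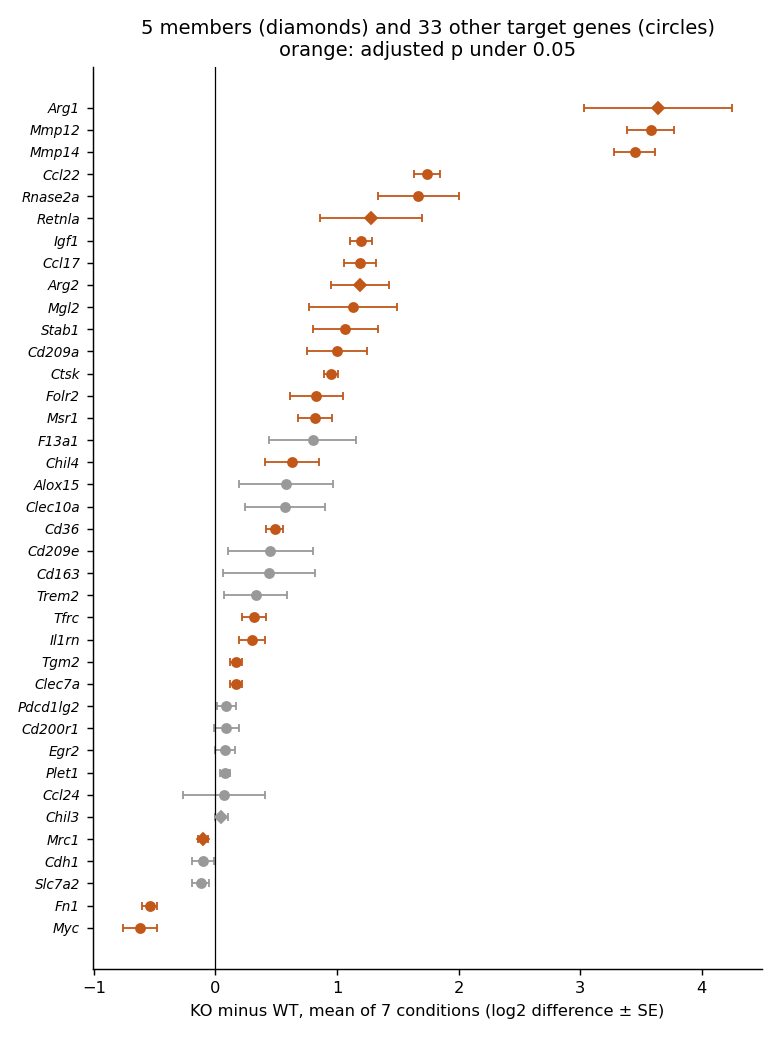
KO minus WT, mean over 7 conditions, on the log2 scale with the standard error, for the 5 genes (diamonds) and 33 other target genes of alternative activation (circles); orange marks an adjusted p under 0.05. Arg1 at 3.64 lies beside Mmp12 and Mmp14 with an error several times as wide, and Chil3 and Mrc1 lie near 0.

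Over the 7 conditions 4 of 9 ligand genes were higher and none lower, where 33.4% of all probe sets were called in either direction. Of these Csf1, the macrophage growth factor, rose by 1.27 ± 0.19 (limma adjusted p = 1.53e-06), while Tslp, Il13 and Csf2 were called at group means of at most 3.10 and differed by 0 with signals under 50 set to 50. Il4 was not called (0.20 ± 0.34). Of 21 receptor and signalling genes 4 were higher and 4 lower, near the share of all probe sets. The core of the IL-4 pathway was not called: Il4ra differed by -0.09 ± 0.12, Stat6 by -0.07 ± 0.08 and Pparg by -0.09 ± 0.09. Klf4, a transcription factor of this program, fell by 0.28 and Ppargc1b by 0.52. Of 20 arginine and polyamine genes 2 were higher and 2 lower, below the share of all probe sets. Slc7a5, an amino acid carrier, fell by 0.86 and Aldh18a1, which makes the proline precursor, by 0.60, whereas Odc1, which turns ornithine into putrescine, differed by 0.00 ± 0.07. Nos2, the inducible nitric oxide synthase, differed by 0.32 ± 0.18 between means of 1.82 and 1.5, far under a signal of 50. The lists were chosen with earlier results of these data known, and their p-values were adjusted over all probe sets.

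Markers of other cells stood beside these differences, in a comparison where 33.4% of all probe sets were called, 4945 higher and 2617 lower in KO. In KO against WT over the 7 conditions 7 of 12 T and NK cell markers and 7 of 12 endothelial and stromal markers were higher and none lower, with summed signals of 2980 to 6668 in WT and 3643 to 6773 in KO for the former and 939 to 1957 and 1844 to 3884 for the latter. Cd3e, Cd8b1, Ncr1, Pecam1, Tagln and Pdgfrb were under 50 on all arrays. Cd4 reached 50 on 10 of 21 KO and 0 of 30 WT arrays, Cd8a on 8 and 0, and Klrd1 on 20 and 7. Col1a1 did so on 8 KO and 1 WT arrays, and Pdgfra on 1 KO and 3 WT arrays. Some KO groups also had fewer probe sets under 50 than WT. In e6 conidia at 4 h these were 32.63%, 33.11% and 32.76% in KO, against 43.03% to 43.88% in WT. In e7 conidia at 2 h they were 32.7% to 37.29% in KO, against 43.43% to 44.3% in WT. Untreated KO mice, at 43.53% to 44.44%, were close to WT at 41.9% to 44.15%. The lowest WT share was 30.12%, on bead replicate 1. The part of this shift in the marker counts was not tested. Of 10 monocyte and dendritic cell markers 4 were higher (243 to 860 in WT, 287 to 1244 in KO), and 1 of 12 neutrophil markers was higher and 1 lower. Cd2 made up most of the T and NK cell sum, at 11.36 to 12.68 over all arrays, and each other marker of that list read at most 7.52. Among endothelial and stromal markers Vwf read 8.55 to 10.55 in WT and 10.57 to 11.69 in KO, Acta2 6.57 to 8.72 and 7.23 to 8.85, and the others at most 6.98. Within KO arrays, with signals of the 5 genes under 50 set to 50, the marker means with the highest r with Arg1 were those of neutrophils (0.43), T and NK cells (0.36) and monocytes and dendritic cells (0.28). With Retnla they were those of lung epithelium (0.45), monocytes and dendritic cells (0.22) and T and NK cells (0.18). For Arg2 they were those of neutrophils (0.47), alveolar macrophages (0.22) and monocytes and dendritic cells (0.16). The part of these cells in the Arg1, Arg2 and Retnla signals was not tested.

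Ordered by group mean, all 7 KO groups stood above all 8 WT groups for Arg1, from 8.72 in KO e6 conidia at 2 h to 1.76 in WT e6 conidia at 4 h. For Arg2 the order ran from 7.89 in KO mock at 2 h to 5.11 in WT mock at 2 h, with WT e6 conidia and beads at 4 h (7.33 and 7.28) among the KO groups. Retnla was highest in KO e6 conidia at 2 h (7.43) and lowest in WT e6 conidia at 4 h (3.30). Neighbours in the order overlapped in their arrays in 14 of 14 pairs for Arg1, Arg2, Retnla and Mrc1 and in 13 of 14 for Chil3. The exception was KO e6 conidia at 4 h (14.33) above KO mock at 4 h (14.19) in Chil3, and no other neighbouring ranks lay further apart than the spread of their arrays.

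Genes whose 15 group means ran most like a member's were ranked by r among 6588 genes with a mean signal of at least 100. For Arg1 these were Bok (0.919), Ctsk (0.914) and Gabarapl1 (0.91), with r of 0.61, 0.69 and 0.61 over the 51 arrays. Those of Arg2 were Ninj1 (0.921), Clec4d (0.913) and Cdkn2b (0.88), and Clec4d kept r = 0.90 over the arrays. Retnla ran with Tspan3 (0.853) and Mrc1 with Setd4 (0.817), at r of 0.51 and 0.42 over the arrays. The nearest genes to Chil3 were Akr1a1 (0.973), Lyz2 (0.971) and Laptm5 (0.965), themselves among the highest signals, so that shared array scaling enters these values.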

How the data were processed

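RNA of alveolar macrophages was labelled with biotin by the 2-cycle Affymetrix procedure from 100 ng, per the labels' protocols, and 51 arrays were measured. The deposited values are signal intensity on a linear scale, 1 per probe set and array. The submitters' processing notes name GCOS and RMA, with no version. The mean of each array, trimmed by 2% at each end, was about 500, and distributions differed between arrays. Of 22690 probe sets 64 controls were left out. Symbols came from the platform annotation, which gave 20380 probe sets 1 symbol, 691 several and 1555 none.

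Signals were taken to log2 with no pseudocount or filter, and 1 mean per group was fitted over all 51 arrays with limma 3.58.1 in R 4.3.3, with p-values adjusted by Benjamini-Hochberg over 22626 probe sets in each of 35 comparisons. The p-values are two-sided and measure the spread between arrays as labelled. The genes, the lists and the comparisons were chosen with earlier results of these data known. Named genes were the 5 genes, Cybb, list and marker genes, and the 3 genes most like each member. The alternatives tried were signals under 50 set to 50, log2(signal + 16), quantile normalization, a filter at a mean of 50, array weights, a trended prior, fits of only the groups compared, the 3'/5' ratio as a covariate, a replicate block, the second Arg2 probe set, and each array left out. The fit without 3 WT arrays was added after seeing the data. The pairs of arrays all differed (lowest median absolute log2 difference within a group 0.22), and the number of arrays limits the precision. The log2 3'/5' ratio of control probe sets ran from 0.92 to 5.32. No batch was given in the sources used here. The fit was tested on simulated data.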

Additional observations from a re-analysis of the deposited data

Results flagged for a closer look

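In 35 tests of a gene in a group of 4 arrays, 4 values stood apart from the other 3 by Dixon's criterion (a gap over the range above 0.829), and chance gives about 1 in 20. Arg2 in WT 4 h mock replicate 3 read 10.11 (gap over range 0.931), and Arg2 in WT 4 h e6 replicate 4 read 8.47 (0.838). Both arrays are among the 3 with high neutrophil markers. Retnla in WT 2 h e7 replicate 3 read 2.45 (0.905), below the others, and in WT 4 h e6 replicate 4 it read 5.13 (0.93), above them, both under a signal of 50. WT 4 h e6 replicate 4 thus stood apart in both Arg2 and Retnla, so the 4 values are not from separate arrays.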

How the results depend on the processing

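The number of calls among the 5 genes moved with some settings. Of 40 tests of KO against WT 7 were called, 4 after quantile normalization, 3 with only probe sets of a mean of at least 50 (which leaves out Arg1 and Retnla), 4 with only the compared groups in the fit, 12 without the 3 WT arrays of high neutrophil markers, and 5 to 11 with any 1 array left out, the 11 without WT 4 h mock replicate 3. After conidia the count rose from 0 to 2 without the 3 arrays (0 to 2 leaving out 1 array), for beads from 0 to 1 (0 to 1), and for the genotype difference in response from 0 to 1 (0 with any 1 array left out). Between doses it rose from 0 to 2 with signals under 50 set to 50, and to 1 with log2(signal + 16), quantile normalization, array weights and the 3'/5' covariate, and was 0 to 1 leaving out 1 array (1 without KO 2 h e6 replicate 1). The cause was not tested. Mock against untreated and the response at 4 h against 2 h kept a count of 0 under every setting run.

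The pathway lists held 36 calls for KO against WT (28 to 42 under the alternatives, 34 to 38 leaving out 1 array), and Cybb differed by -2.75 (-2.82 to -2.68, and -2.81 to -2.66). No result changed direction past its threshold. For single genes and comparisons 168 results of alternatives kept their side of the threshold, 25 gained a call and 9 lost it. Same-numbered replicates did not deviate together in the median (median r = 0.03 over 322 pairs, -0.01 over 889 pairs of different numbers). Whether replicates 1 and 2 deviate together against 3 and 4 cannot be seen in these medians and was not tested. In WT, Chil3 of replicates 1 and 2 lay above 3 and 4 in untreated mice, both e6 groups, e7 conidia at 2 h and mock at 4 h. It did not in mock at 2 h or in e7 conidia at 4 h. With the replicate block 10 of the 40 KO against WT tests were called, among them Retnla in e6 conidia at 2 h (4.03, limma adjusted p = 0.031) and at 4 h (3.16, adjusted p = 0.0339) and Chil3 in e7 conidia at 4 h (-0.38, adjusted p = 0.0332). Signals of Arg1 and Retnla under 50 limit what their WT levels can show.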
